A study of Mus musculus with 6 samples.

Results

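The genes described here carry peptides to the cell surface on MHC class I, and 10 of them were read from the 55538 features of the count table. They were listed by name and not picked by their values, although earlier results of these data were known. They are the heavy chains *H2-K1*, *H2-D1* and *H2-T23*, their light chain *B2m*, the peptide transporter subunits *Tap1* and *Tap2*, the loading chaperone *Tapbp*, the immunoproteasome subunits *Psmb8* and *Psmb9*, and *Nlrc5*, a transactivator of class I genes. All 10 were found and all 10 passed the limit on low values used below in every comparison. The 6 libraries hold single-cell RNA-seq (droplet) of resident peritoneal cells of C57BL/6 mice (C57BL/6J in the methods) aged 8 to 12 weeks, from WT (MerTK +/+) animals and from MerKD (MerTK -/-) animals, which lack a receptor that MΦs use to engulf apoptotic cells (ACs). Each genotype had a library of cells given a change of media, a library after 2 h and a library after 6 h with ACs, which were UV-treated human Jurkat T cells expressing GFP, at 5 per phagocyte. The cells of all groups had adhered to plastic for 1 h, so they are a selected culture and not the peritoneum itself, the cells of 3 mice were pooled in each library, and the MerKD line had been backcrossed for 10 generations.

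The labels call the cells peritoneal macrophages, but 3101 of the 7665 cells kept passed the B cell gate described below. The 6 libraries carry only a number from 1 to 6 in the table, and no label ties a number to a genotype or time, so no genotype or time points are compared. Values are given over the pool of libraries and by library number, and libraries are not treated as replicates of a condition. Between 953 and 1608 cells per library were kept, 7665 of 7760 barcodes in all, at 4234786 to 10287079 UMIs (counted molecules) per library. The median kept cell had 2783 UMIs in library 6, the shallowest, and 5794 in library 1. Only 28 of 7732 barcode sequences occurred in more than 1 library.

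MHC class I displays fragments of a cell's own proteins to CD8 T cells. The proteasome cuts proteins into peptides, and in immune cells *Psmb8* and *Psmb9* can take the places of the constitutive subunits *Psmb5* and *Psmb6*. *Tap1* and *Tap2* form a pump that moves peptides into the endoplasmic reticulum, where tapasin (*Tapbp*) holds the empty heavy chain and *B2m* close to it until a peptide fits. *H2-K1* and *H2-D1* encode the classical heavy chains of this strain, and *H2-T23* encodes Qa-1, a nonclassical heavy chain read by an inhibitory receptor of NK cells and some T cells.

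RefSeq (GRCm38.p6) promoter windows, 250 bases before to 50 bases after a start, were available for 8 of the 10 members, all but *Tap2* and *Nlrc5*. The windows of *H2-K1* (chr17:34000298-34000597, minus strand) and *H2-D1* (chr17:35262844-35263143, plus strand) are shown because these similar genes differed in their ratio between cell classes. The window of *Tap1* (chr17:34187306-34187605, plus strand) is shown because it overlaps that of *Psmb9* (chr17:34187281-34187580, minus strand) by 275 bases. Capitals mark the letters GGGGATTCC (κB), AAGTGAAA (an interferon regulatory factor motif), TGACGC (an X2 box) and CCAAT, on either strand.
H2-K1: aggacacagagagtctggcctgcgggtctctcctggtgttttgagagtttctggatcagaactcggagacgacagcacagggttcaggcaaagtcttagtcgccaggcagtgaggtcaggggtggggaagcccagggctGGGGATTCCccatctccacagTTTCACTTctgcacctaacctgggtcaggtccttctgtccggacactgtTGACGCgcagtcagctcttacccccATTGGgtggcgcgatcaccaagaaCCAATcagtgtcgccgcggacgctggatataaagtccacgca
H2-D1: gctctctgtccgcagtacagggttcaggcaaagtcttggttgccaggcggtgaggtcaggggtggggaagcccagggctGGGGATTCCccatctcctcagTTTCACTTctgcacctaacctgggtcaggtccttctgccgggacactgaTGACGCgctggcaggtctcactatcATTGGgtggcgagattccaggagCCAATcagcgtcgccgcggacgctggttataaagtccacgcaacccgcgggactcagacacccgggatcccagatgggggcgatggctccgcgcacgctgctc
Tap1: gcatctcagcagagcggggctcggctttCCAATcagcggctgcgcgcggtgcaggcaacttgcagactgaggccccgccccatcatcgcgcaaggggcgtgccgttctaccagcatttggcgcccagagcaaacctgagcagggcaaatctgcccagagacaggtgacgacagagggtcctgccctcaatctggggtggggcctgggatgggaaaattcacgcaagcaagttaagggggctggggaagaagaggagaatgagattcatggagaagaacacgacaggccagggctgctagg
Both heavy chain windows held all 4 motifs in the same order, and 211 of their 239 columns aligned without a gap were identical (88.3%). The shared *Tap1* and *Psmb9* stretch held CCAAT alone, as did the windows of *H2-T23*, *B2m* and *Tapbp*, while that of *Psmb8* held none of the 4. Among 32851 promoter windows, GGGGATTCC occurred in 0.250%, AAGTGAAA in 1.60%, TGACGC in 7.40% and CCAAT in 37.4%. A match is a description of the letters and not a binding site.

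In GRCm38, 8 of the 10 members lie on chromosome 17, in or beside the H2 complex. *Tapbp* (chr17:33915899-33929292), *H2-K1* (chr17:33996017-34000347), *Psmb9* (chr17:34181987-34187764), *Tap1* (chr17:34187553-34197225), *Psmb8* (chr17:34197721-34201454) and *Tap2* (chr17:34203527-34216321) follow each other in that order. *H2-D1* (chr17:35262730-35267499) and *H2-T23* (chr17:36029773-36032855) lie further along, *B2m* is at chr2:122147686-122153083 and *Nlrc5* at chr8:94434356-94527272. Exons of *Tapbp* overlap *Zbtb22* on the same strand, so reads in that stretch are uncertain. Exons of *Tap1* overlap those of *Psmb9*, and exons of *Tap2*, *Tapbp*, *Psmb8* and *Nlrc5* overlap noncoding genes, all on the opposite strand. Whether overlaps on the opposite strand touch the counts was not tested. Of all stretches of 100 bases in their transcripts, 4.09% for *H2-D1*, 7.28% for *H2-T23* and 0.0972% for *Tapbp* also occurred in another gene, and 0 did among stretches starting in the first 500 bases of a transcript of any member.

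Cells were sorted into classes by UMIs of a few genes. B cells had at least 4 UMIs of *Cd79a* and *Cd79b* (3101 cells), T/NK cells at least 2 of *Cd3d*, *Cd3e* and *Nkg7* (667 cells), and MΦs at least 2 of *Csf1r*, *Adgre1* and *Fcer1g* with low counts of the others (2773 cells). MΦs with *Gata6* and no *Irf4* UMI (635 cells) stand for large peritoneal macrophages (LPMs), and MΦs with *Irf4* and no *Gata6* UMI (255 cells) for small ones (SPMs). This split leaves out most MΦs, namely 1861 with neither gene and 22 with both. The median cell had 5519 UMIs in *Gata6* MΦs, 4038 in *Irf4* MΦs and 4139 in MΦs with neither. Among markers of the subsets, the LPM markers summed to 3330 CPM (UMIs scaled to 1e+06 UMIs of the class) in *Gata6* MΦs and 564.5 in *Irf4* MΦs, and the SPM markers to 1559 and 11960 CPM. These lists hold the gate genes, *Gata6* at 269 CPM and *Irf4* at 589 CPM in their own class, so that part is fixed by the gate. *Il7r* reached 300.2 CPM in *Irf4* MΦs, but *Cd3g* was at 1.67 and *Trac* at 0.834 CPM there, and of the DC markers *Xcr1* and *Clec9a* were at 0, *Zbtb46* at 17.5 and *Ccr7* at 38.4 CPM.

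The T/NK class overlapped others. It shared 153 cells with the B class, which are 22.9% of its cells and 47.1% of its UMIs. Their median was 10045 UMIs, beside 5561 in B cells and 2813.5 in T/NK cells outside the B gate. Scrublet called 1 of the shared cells a doublet, at an expected rate of 0.01, although they alone are 2.00% of the kept cells. How many of them are doublets is therefore not settled. The 514 T/NK cells outside the B gate carried 257 CPM of 8 B cell markers, against 2010 CPM in B cells. They also carried 2710 CPM of 8 macrophage markers (44.4 to 5918 between libraries), with *Lyz2* at 1914 and *Apoe* at 414 CPM, against 22240 CPM in MΦs (19580 to 26067) and 677 CPM in B cells. The main differences from T/NK cells are therefore given with and without the shared cells. The part of macrophage transcripts in these values was not tested beyond a gate that also leaves out cells with 2 or more macrophage UMIs.

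Relative to lymphocytes, *H2-D1* was the highest member in MΦs and *Psmb8* and *Psmb9* were the lowest. In MΦs *H2-D1* stood at 2757, 2678, 1922, 1755, 1740 and 1436 CPM in libraries 1 to 6, and in B cells at 718, 896, 582, 618, 668 and 624 CPM. The lowest MΦ library lay above the highest B cell library. Over the pool the level was 2171 CPM in MΦs and 699.6 CPM in B cells, a ratio of 3.10-fold with a log2 difference of 1.63 (1.20 to 1.94 between libraries), taken on CPM with 1 added as are all log2 differences here. In T/NK cells *H2-D1* was at 1098 CPM (724.5 to 1456), which came to 0.65 on the log2 scale over B cells and to 0.98 below MΦs, just short of 2-fold. Without the shared cells these were 1.00 and 0.64.

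*H2-K1* ran otherwise. Its level was 717 CPM in B cells (610 to 833), 1304 CPM in T/NK cells (1121 to 1578) and 1216 CPM in MΦs (814 to 1554). The T/NK libraries lay above all B cell libraries, whereas the MΦ range overlapped both. *H2-K1* in MΦs was 0.76 above B cells on the log2 scale (0.10 to 1.10, above in 6 of 6 libraries) and differed from T/NK cells by -0.10, with 2 libraries above 0 and 4 below, or by 0.33 when TMM factors scaled the classes. Without the shared cells the difference was -0.45, with 6 of 6 libraries below 0 (-1.09 to -0.25).

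The balance of the classical heavy chains therefore differed by class. *H2-K1* made up 36.0, 34.1, 36.9, 36.5, 35.9 and 36.2% of the *H2-K1* and *H2-D1* UMIs of MΦs in libraries 1 to 6, 35.9% over the pool (exact binomial 95% interval 35.5 to 36.3%). In B cells the share was 50.6% (48.2 to 54.9% between libraries) and in T/NK cells 54.3% (51.4 to 63.7%), or 54.4% without the shared cells. No MΦ library reached the lowest B or T/NK library. The shares of *Gata6* MΦs (34.96%, 32.1 to 36.8%) and *Irf4* MΦs (36.3%, 33.8 to 38.9%) overlapped between libraries, and the share stood at 35.8% in the 574 MΦs with a *Tnf* UMI and 36.0% in those without. As each share is taken within a class and library, it does not move with the scaling to CPM, but length and capture of the transcripts set its level, so only shares of the same pair are compared. Intervals here and below cover counting error only.

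**Figure D1:**
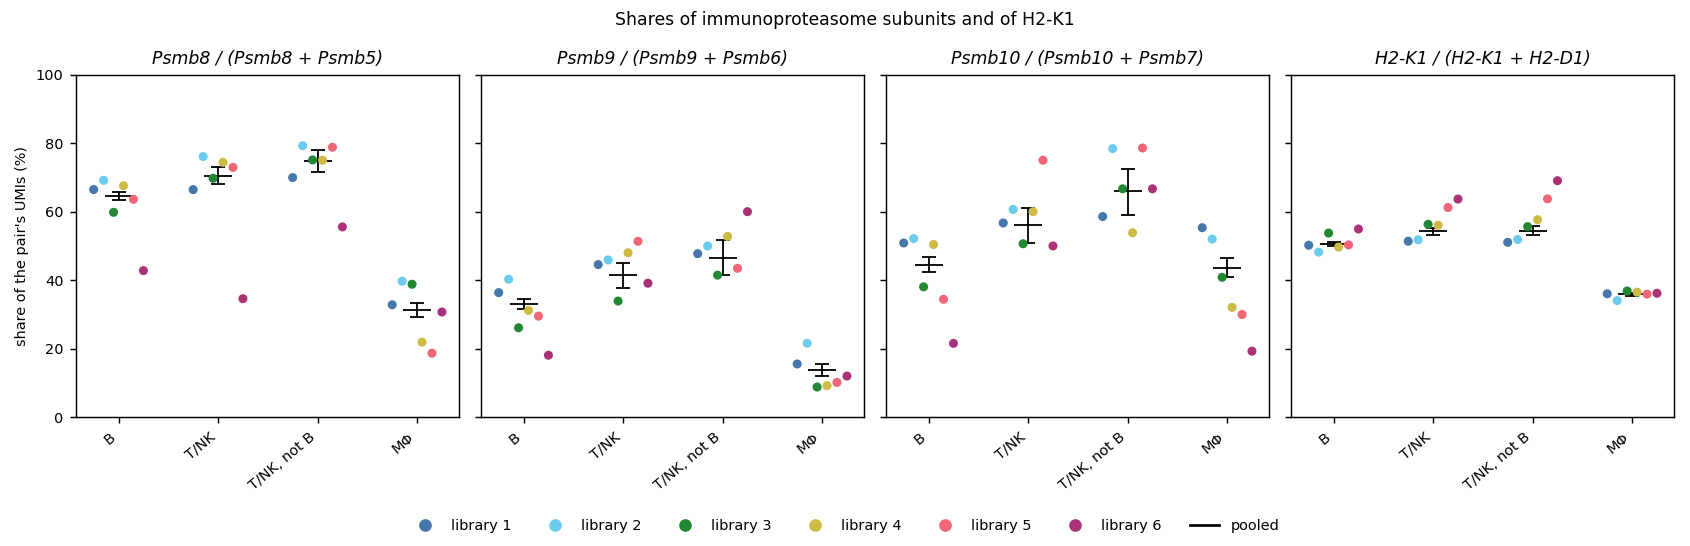
Share of each immunoproteasome subunit in the UMIs of that subunit and the constitutive one it replaces, and share of *H2-K1* in the *H2-K1* and *H2-D1* UMIs, in percent, by cell class. Points are libraries 1 to 6, horizontal lines the pool and bars its exact binomial 95% interval. The *H2-K1* share of MΦs lies between 34.1 and 36.9% in every library, below all lymphocyte libraries.

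*B2m*, the light chain that class I molecules need, stayed within 2-fold between classes. It was at 1127 CPM in B cells (1044 to 1331), 1591 CPM in T/NK cells (1443 to 1815), 1851 CPM in *Gata6* MΦs (1463 to 2117) and 1749 CPM in *Irf4* MΦs (1339 to 2007). Only B cells stood apart, below MΦs and T/NK cells in 6 of 6 libraries, by 0.68 and 0.50 on the log2 scale, the latter 0.77 without the shared cells. The ranges of the other classes overlapped.

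*H2-T23* was the member that separated the MΦ subsets. *Irf4* MΦs held 144, 159, 119, 128, 156 and 159 CPM in libraries 1 to 6, and *Gata6* MΦs held 53.3, 46.5, 19.4, 40.7, 56.5 and 65.6 CPM. The groups of libraries did not overlap. The pooled levels of 142 and 47.8 CPM differed by 1.55 on the log2 scale (1.26 to 2.56 between libraries), from 170 and 182 UMIs, with an interval of 1.26 to 1.88. Leaving out any 1 library gave 1.49 to 1.65, called each time. Interferon-stimulated genes, described below, and the DC markers moved in the same direction over the pool (410 and 241 CPM, and 56.7 and 12.3 CPM). Between libraries the former ran from 77.8 to 1176 CPM in *Irf4* MΦs and from 154 to 304 CPM in *Gata6* MΦs. The DC markers ran from 11.1 to 465 and from 0 to 30.4 CPM. Some interferon-stimulated genes, *Irf1* among them, went the other way over the pool. The part of both lists in the *H2-T23* difference was not tested. MΦs with neither *Gata6* nor *Irf4*, the largest group, held 57.7 CPM of *H2-T23* (37.8 to 82.0 between libraries). In B cells *H2-T23* was at 105 CPM (82.3 to 163), above the pooled MΦ class by 0.73 on the log2 scale in 6 of 6 libraries. In T/NK cells it was at 94.6 CPM (72.0 to 231), where 2 libraries lay above B cells and 4 below.

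*H2-D1* went the other way, at 3081, 2915, 2174, 1874, 1756 and 1438 CPM in *Gata6* MΦs and 1245 to 2089 CPM in *Irf4* MΦs. It was lower in *Irf4* MΦs in 6 of 6 libraries, by 0.61 on the log2 scale, although by only 0.01 in library 6. *Tapbp* was lower in 6 of 6 (-0.35, -0.59 to -0.06 between libraries) and *Psmb8* higher in 6 of 6 (0.50, 0.05 to 1.53), both short of 2-fold. Pooled differences also carry the mix of libraries. Library 1 gave 206 of the 635 *Gata6* MΦs and library 6 gave 113 of the 255 *Irf4* MΦs. The median over the libraries was -0.44 for *H2-D1*, -0.15 for *Tapbp* and 0.69 for *Psmb8*. In library 4 *Psmb8* rested on 25 and 5 UMIs in *Gata6* and *Irf4* MΦs. A member was called when its pooled ratio reached 2-fold and had the same sign in 6 of 6 libraries, among features with a mean of at least 5 CPM. Of the 10 members, 1 (*H2-T23*) was called higher in *Irf4* MΦs, where 5.31% of the 8825 features tested were, and 0 were called lower, where 4.01% of features were. The members' median log2 difference was 0.09, beside 0.10 for all features tested.

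**Figure D2:**
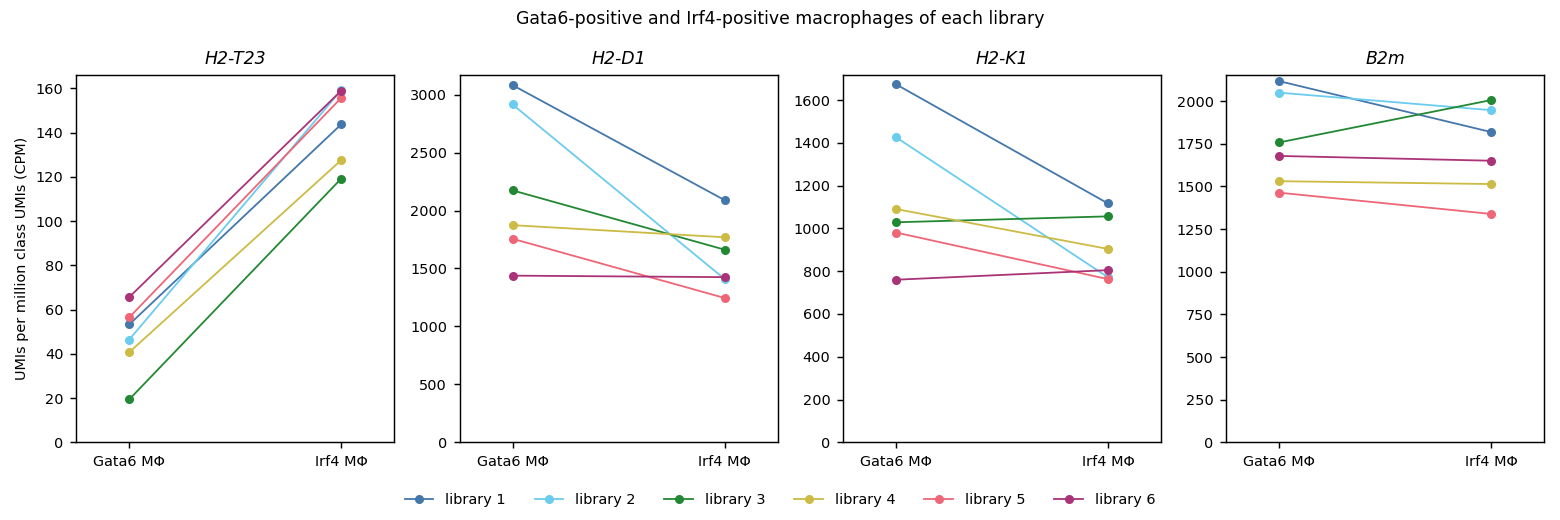
Levels of the heavy chains and *B2m* in CPM in *Gata6* and *Irf4* MΦs, with a line for each of libraries 1 to 6. *H2-T23* rises along every line, from 19.4 to 65.6 CPM up to 119 to 159 CPM, and *H2-D1* falls along every line.

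The immunoproteasome genes were the low members of MΦs. *Psmb8* was at 221, 267, 203, 169, 159 and 87.3 CPM in B cells of libraries 1 to 6 and at 65.4, 77.3, 76.7, 30.6, 20.01 and 35.3 CPM in MΦs. No MΦ library reached the lowest B cell library, and within each library MΦs were lower. Over the pool the level was 203 CPM in B cells and 51.8 CPM in MΦs, 3.87-fold lower in MΦs or -1.95 on the log2 scale (-2.93 to -1.28). In T/NK cells *Psmb8* was at 278 CPM (94.5 to 348), with MΦs lower by 2.40 on the log2 scale, or by 2.53 without the shared cells.

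*Psmb9* moved in the same manner. B cells held 79.3, 98.3, 56.4, 47.8, 47.9 and 21.8 CPM and MΦs 21.4, 32.8, 14.5, 8.54, 7.70 and 12.9 CPM in libraries 1 to 6. The ranges overlapped between libraries, since library 6 was low in B cells, but the difference had the same sign within each library. The pooled log2 difference was -1.92 over B cells (-2.49 to -0.72) and -2.38 over T/NK cells (-3.67 to -1.71), or -2.52 without the shared cells.

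Each immunoproteasome subunit was also set against the constitutive subunit whose place it takes, within the same cells. *Psmb8* made up 64.5% of the *Psmb8* and *Psmb5* UMIs of B cells (42.8 to 69.1%), 70.5% of those of T/NK cells (34.6 to 76.1%) and 31.3% of those of MΦs (18.7 to 39.7%). *Psmb9* made up 33.1% of its pair with *Psmb6* in B cells (18.1 to 40.3%), 41.4% in T/NK cells (33.9 to 51.4%) and 13.8% in MΦs (8.85 to 21.6%). The T/NK range for *Psmb8*, lowest in library 6 on 9 *Psmb8* UMIs, reached into the MΦ range. So did the B cell range for *Psmb9*. Within each library both shares were lower in MΦs than in B and T/NK cells. For the remaining subunit *Psmb10*, which is no member and takes the place of *Psmb7*, the share was 44.5% in B cells (21.6 to 52.1%) and 43.7% in MΦs (19.3 to 55.3%), with overlapping ranges. T/NK cells were at 56.0% (50 to 75%), or 66.0% without the shared cells. None of the constitutive subunits *Psmb5*, *Psmb6* and *Psmb7* was called in any of the 4 comparisons.

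Genes of the ribosome were lower in MΦs as well. Of all UMIs, 36.9% in B cells (31.5 to 40.5%) and 36.5% in T/NK cells (32.5 to 41.3%) fell on 393 ribosomal protein genes and pseudogenes, and 13.3% in MΦs (10.1 to 15.6%). With CPM taken without immunoglobulin, mitochondrial and ribosomal genes, *Psmb8* (-2.46) and *Psmb9* (-2.43) were called lower in MΦs than in B cells and *H2-D1* was called higher (1.13), while the median of all features moved from -0.16 to -0.69. On this scale *H2-T23* (-1.24), *Tap2* (-1.43) and *Nlrc5* (-1.21) were called lower too, which made 5 members lower, and over T/NK cells *H2-T23* (-1.07) and *Tap2* (-1.78) joined the members called lower.

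*Nlrc5* was rare in every class. It was at 19.1 CPM in B cells (15.3 to 25.7), 41.3 CPM in T/NK cells (21.0 to 57.8) and 11.2 CPM in MΦs (3.85 to 15.4). The MΦ range touched the B cell range and lay below the T/NK range, at a log2 difference of -1.79 over T/NK cells (-3.60 to -0.42) and -2.19 without the shared cells. T/NK cells were 1.07 above B cells on the log2 scale, with 5 libraries above 0 and library 6, with 2 UMIs in 24 cells, at -0.15, and 1.52 above without the shared cells, again with library 6 below 0 (-0.08). *Gata6* and *Irf4* MΦs gave 34 and 13 UMIs of *Nlrc5*, too few to place them in order at this depth (log2 difference 0.25, interval -0.77 to 1.24).

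The transporter and chaperone genes lay closer together. *Tap1* was at 42.3 CPM in B cells (35.4 to 53.5), 69.6 CPM in T/NK cells (42.0 to 86.7) and 33.2 CPM in MΦs (25.8 to 64.2). *Tap2* was at 55.01 CPM in B cells (40.5 to 70.0), 71.0 CPM in T/NK cells (21.3 to 93.8) and 28.4 CPM in MΦs (23.5 to 39.5), with every MΦ library below every B cell library. *Tapbp* was at 162 CPM in MΦs (136 to 174), 102 CPM in B cells (91.2 to 119) and 136 CPM in T/NK cells (73.5 to 156). In T/NK cells without the shared cells it was at 159 CPM, 0.02 from MΦs on the log2 scale, with 1 library above 0 and 5 below. The transporter genes thus fell on the side of the immunoproteasome in MΦs (*Tap2* -0.93 over B cells, in 6 of 6 libraries, and *Tap1* -0.34, in 5 of 6), and *Tapbp* on the side of the classical heavy chains (0.66, in 6 of 6).

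**Figure D3:**
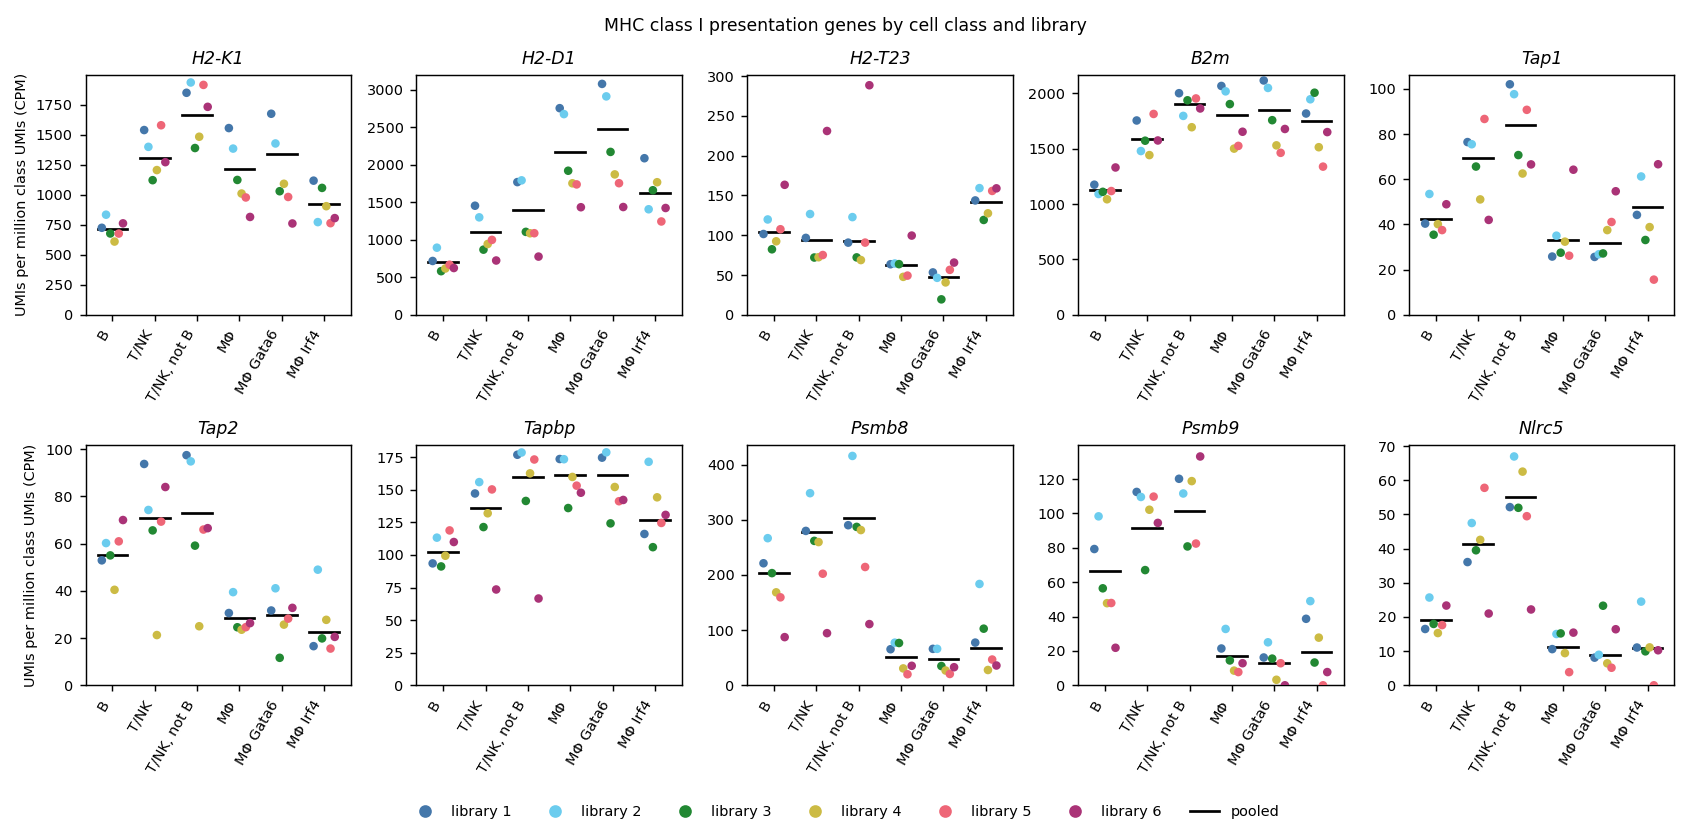
Level of each member in CPM by cell class, on an axis of its own for each gene. Points are libraries 1 to 6 and lines the pool. *H2-D1* is highest in MΦs (1436 to 2757 CPM), *Psmb8* is lowest there (20.01 to 77.3 CPM), and *H2-T23* is higher in *Irf4* than in *Gata6* MΦs.

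Set against all features, MΦs over B cells had 1 of 10 members called higher (*H2-D1*), where 18.0% of 9432 features were, and 2 called lower (*Psmb8* and *Psmb9*), where 21.1% were. The members' median log2 difference was -0.53 and that of all features tested -0.16. MΦs over T/NK cells had 0 members called higher, beside 16.2% of 9663 features, and 3 called lower (*Psmb8*, *Psmb9* and *Nlrc5*), beside 17.4%, at a median of -0.82 against -0.23. Without the shared cells 5 were called lower (*Tap1* at -1.32 and *Tap2* at -1.34 joined them), beside 13.9% of features, and 0 higher, beside 17.0%. In MΦs over B cells the counts of members called were near the background in both directions.

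In T/NK over B cells 0 of 10 members were called in either direction, where 4.02% of 9640 features were higher and 2.38% lower, at a median of 0.48 beside 0.04. Most members leaned to the T/NK side, with *H2-K1* (0.86, range 0.73 to 1.22), *H2-D1* (0.65), *B2m* (0.50), *Psmb8* (0.45) and *Psmb9* (0.46) above 0 in 6 of 6 libraries. Without the shared cells *H2-K1* (1.24, 1.12 to 1.51), *H2-D1* (1.00, 0.32 to 1.32) and *Tap1* (1.01, 0.40 to 1.3) were called higher, 3 of 10 beside 5.60% of features, 0 were called lower beside 6.57%, and the median was 0.71 beside 0.05. With the gate that also leaves out macrophage UMIs, *H2-K1* (1.31), *Tap1* (1.14) and *Nlrc5* (1.64) were called and *H2-D1* (0.88) was not. *H2-K1* in T/NK cells outside the B gate was at 1388 to 1934 CPM.

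**Figure D4:**
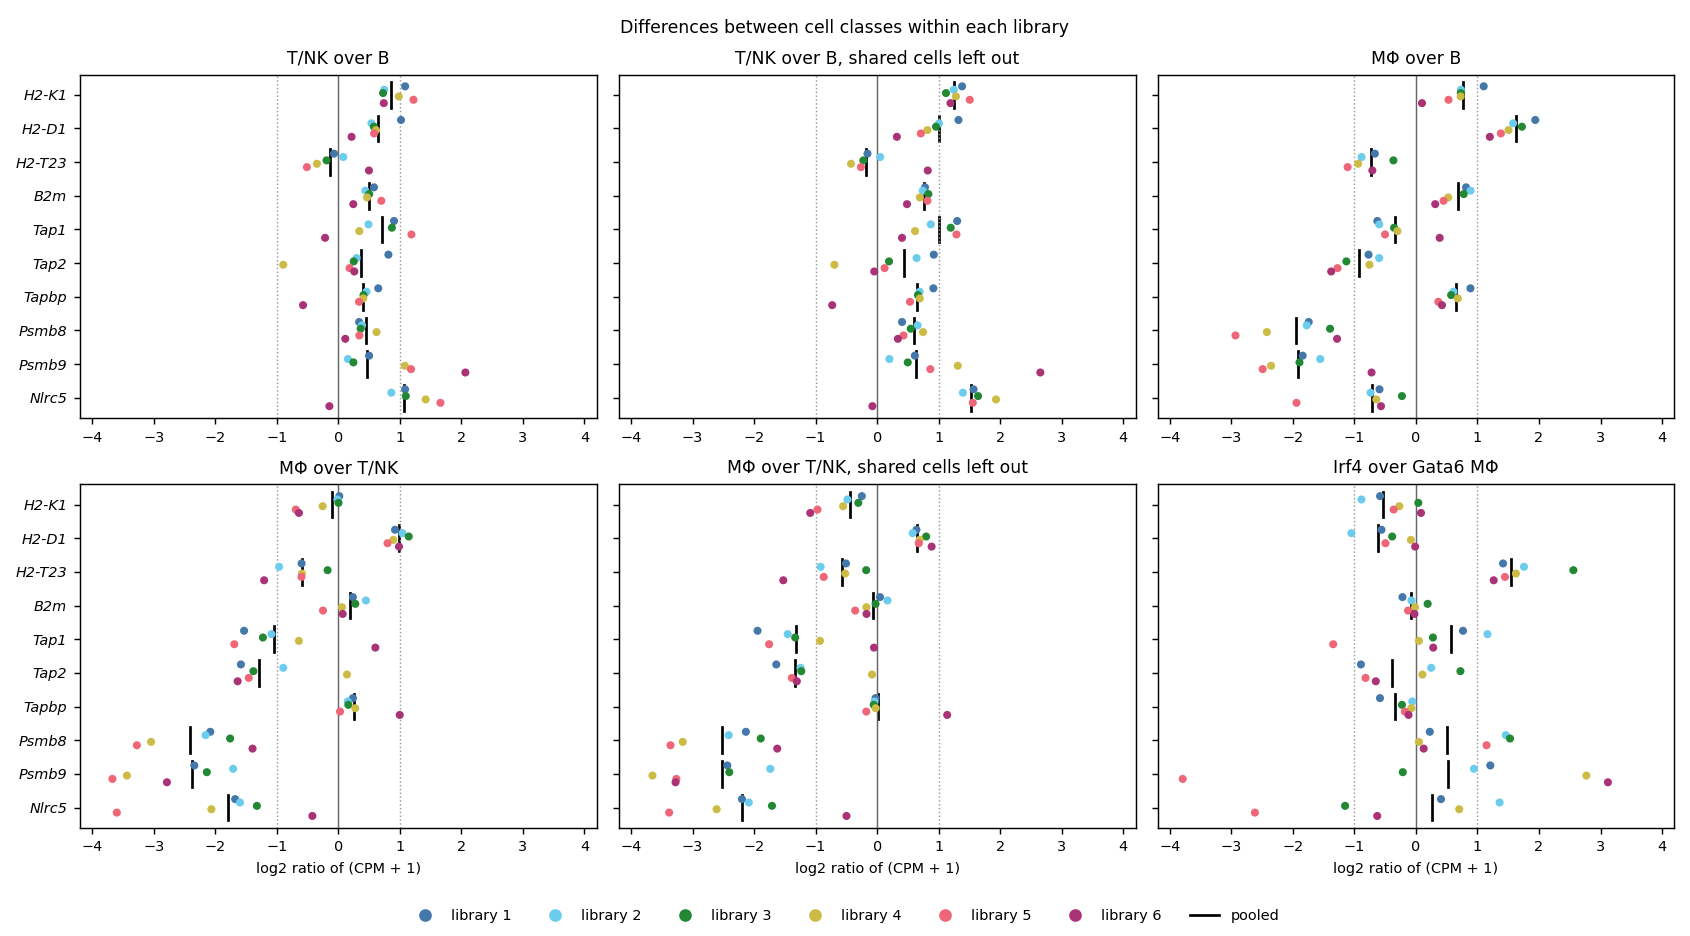
Log2 difference of CPM with 1 added for each member between cell classes. Points are the differences within libraries 1 to 6, black ticks the pool, and dotted lines mark 2-fold. In MΦs over B cells *H2-D1* lies to the right of 2-fold in every library and *Psmb8* to the left. Points at the edges for *Psmb9* and *Nlrc5* in *Irf4* over *Gata6* MΦs rest on 0 to 7 UMIs on a side.

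Within the T/NK class the finer groups were small. They were drawn from the whole T/NK class, with the cells shared with the B class left in. The 116 CD8 T cells and 168 CD4 T cells held 1288 and 1278 CPM of *H2-K1* and 1113 and 1104 CPM of *H2-D1*. T/NK cells outside the B gate held 1659 CPM of *H2-K1* and 1392 CPM of *H2-D1*. The part of the shared cells in the finer groups was not tested. The 14 NK-like cells held 2220 CPM of *H2-D1*, 1971 CPM of *H2-K1* and 2322 CPM of *B2m*, each above the pooled level of the other lymphocyte classes. They came from 4 libraries, and no library had more than 5 of them. B cells with and without *Fcer2a* were at 704 and 699 CPM of *H2-D1* and 843 and 709 CPM of *H2-K1*.

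Interferons induce many of the members, and 16 interferon-stimulated genes outside the list were summed beside them. They stood at 182.5 CPM in B cells (96.4 to 278), 443 CPM in T/NK cells (304.5 to 534), 296 CPM in MΦs (142 to 387), 241 CPM in *Gata6* MΦs and 410 CPM in *Irf4* MΦs (77.8 to 1176). *Irf1*, an interferon-induced transcription factor, was at 37.1 CPM in B cells, 81.2 CPM in T/NK cells and 45.1 CPM in MΦs. The summed level of MΦs lay above that of B cells while *Psmb8* and *Psmb9* lay below. The part of interferon in the members' levels was not tested.

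Of 57 other genes of the pathway, T/NK over B cells had 9 called higher and 0 lower of 48 tested, beside 4.02 and 2.38% of all features. MΦs over B cells had 7 higher and 6 lower of 43 (18.0 and 21.1% of all features), and MΦs over T/NK cells 8 higher and 13 lower of 49 (16.2 and 17.4%). *Irf4* over *Gata6* MΦs had 1 higher and 0 lower of 40 (5.31 and 4.01%). Without the cells shared by the gates the counts were 11 and 3 of 49 for T/NK over B cells (5.60 and 6.57%) and 10 and 13 of 48 for MΦs over T/NK cells (17.0 and 13.9%). The other heavy chains were on the T/NK side, with 6 of 7 tested called lower in MΦs than in T/NK cells, among them *H2-Q7* (66.3 and 246 CPM, -1.88), *H2-Q4* (49.1 and 176 CPM, -1.83) and *H2-T22* (43.2 and 143 CPM, -1.70). Without the shared cells these came to -2.34, -2.36 and -1.88. *H2-Q4*, *H2-Q6* and *H2-Q7* are similar to each other in sequence, so reads may be split or lost among them. Of the loading factors, the chaperones *Canx* (1.01 over B cells and 1.26 over T/NK cells) and *Hspa5* (1.39 and 1.67) were called higher in MΦs, and *Psme1*, a subunit of the proteasome activator, was called lower (-1.29 and -1.46). Over T/NK cells without the shared ones the values were 1.76, 2.04 and -1.41.

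Among regulators and receptors of the pathway, *Ciita*, the class II counterpart of *Nlrc5*, was lower in MΦs than in B cells by 3.60 on the log2 scale (4.28 and 63.0 CPM). The interferon receptor genes *Ifnar1* (1.52), *Ifnar2* (1.92) and *Ifngr2* (1.44) were higher in MΦs than in B cells, while *Ifngr1* was higher in T/NK than in B cells (478 and 59.3 CPM, 2.99), or 694 and 44.0 CPM (3.95) without the shared cells. The inhibitory receptors *Pirb* (116 and 23.6 CPM, 2.25) and *Lilrb4a* (147 and 29.9 CPM, 2.26), of which the former binds class I, were higher in MΦs than in B cells. *Cd8a* (43.7 CPM), *Cd8b1* (97.0 CPM) and *Klrd1* (57.6 CPM), receptors that read class I, marked T/NK cells as the gate would select them, and *Klrc1* was at 23.001 CPM there but listed at 0 in library 6. In *Irf4* over *Gata6* MΦs the kinase gene *Jak2* was called higher (1.05), and *H2-Q6* (-1.60), *H2-Q4* (-1.42), *Irf1* (-1.34) and *H2-T10* (-1.16) were lower over the pool but not in 6 of 6 libraries.

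After every cell was thinned to 1500 UMIs, the variance over the mean of *H2-D1* was 1.62 in MΦs, 1.32 in B cells and 1.56 in T/NK cells outside the B gate. A value of 1 is counting alone. Among genes with a mean of at least 0.1 UMIs per cell, the median was 1.09, 1.08 and 1.06 and the 90th percentile 1.71, 1.46 and 1.49. *H2-D1* passed that percentile only in the T/NK cells. *H2-K1* was at 1.47, 1.40 and 1.31 and *B2m* at 1.40, 1.31 and 1.10 in the same classes. These values include differences between libraries. Taken within each library, the median was 1.45, 1.27 and 1.33 for *H2-D1*, 1.34, 1.32 and 1.31 for *H2-K1* and 1.31, 1.32 and 1.13 for *B2m*. *H2-T23*, *Tap2* and *Nlrc5* lay between 0.905 and 1.12 in these classes, but at means of only 0.0171 to 0.160 UMIs per cell. At such low means the value stays near 1, so it cannot tell whether these genes vary among cells.

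Across 24 sums of 4 classes in 6 libraries (B, T/NK, *Gata6* and *Irf4* MΦs), the members did not form a single pattern. *B2m* ran closest with *H2-D1* (Pearson r = 0.78), *Psmb8* with *Psmb9* (0.77), and *Nlrc5* with *Tap1* (0.78) and *Psmb9* (0.75), whereas *H2-D1* and *Psmb8* ran against each other (-0.55). The points share libraries, depth and classes, so these are descriptions. Among 5538 genes whose mean reached 20 CPM, the most like *H2-D1* were *Ecm1* (0.93), *Pla2g7* (0.93) and *C4b* (0.92), and the most like *Psmb8* were *Gm12715* (0.95), *Ubb* (0.95) and the ribosomal gene *Rplp0* (0.94). Among the genes near *Tap1* were *Ifi47* (0.80) and *Gtf3c6* (0.80), and *Nlrc5* was nearest to *Rnf138* (0.92), *Arid5a* (0.91) and *Pym1* (0.91). *H2-T23* was nearest to *Rbm34* (0.87), *Jarid2* (0.85) and *Irf4* (0.85), the last of which defines a gate. *Psmb9* had *Batf* (0.92), *Psmb1* (0.92) and *Gm8797* (0.91), *H2-K1* had *Nrip1* (0.82), *Tpp2* (0.81) and *Prkch* (0.78), and *B2m* had *Arhgap31* (0.85), *Ern1* (0.82) and *Xdh* (0.80). *Tap2* had *Zfp362* (0.87), *Prmt1* (0.84) and *Ep400* (0.83), and *Tapbp* had *Hpcal1* (0.78), *Tmx3* (0.78) and *Rab32* (0.77).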

How the data were processed

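The authors deposited 1 table of raw UMI counts for 55538 features and 7760 barcodes of 6 libraries, with no normalization. Reads were mapped to the human and mouse genomes with Cell Ranger, version 1.3.1 in the methods and 2.2 in the submitters' notes, which also name Seurat 3.0, mm10 and GRCm38. The annotation counted on is not given in the sources used here.

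Members and lists were chosen with earlier results of these data known. Kept were barcodes with 500 or more genes, log genes over log UMIs no lower than 0.8 and no more than 10% of UMIs on mitochondrial genes (95 left out), and 1277 kept cells fell in no gate. UMIs were summed per class and divided by the class total (CPM). Intervals are exact at 95% (Poisson, binomial, or conditional for ratios, without the added 1 CPM). No p-value is given, since each condition has 1 library whose number is unmapped and cells are not replicates. Named beside the members are, per comparison, the 5 pathway genes with the largest ratio, the 3 genes most like each member, and other pathway genes chosen after their values were seen. Values of 1 gene that this rule names are not reported here. Scrublet (expected rate 0.01) called 61 of 7665 cells doublets, kept in the main values, and free RNA was not removed. Simulated data with changed genes served as a check of the scripts. Alternatives were other cell filters and gates, exclusive gates, no doublets, TMM, other totals, equal weights, thinning, no limit on low values and leaving out each library. Leaving out the cells in both gates, and the alternatives for shares, were chosen after seeing the data. R 4.3.3, edgeR 4.0.16, Python 3.11.15, numpy 2.4.6, scipy 1.17.1, pandas 2.3.3, scanpy 1.11.5 and matplotlib 3.10.9 were used. Gene positions are from GENCODE vM21.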

Additional observations from a re-analysis of the deposited data

Results flagged for a closer look

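Of 50 sets of 6 library values (10 members in 5 classes), 4 had a library far from the others, and chance sets such a library apart in about 1 of 20 sets. *H2-T23* in T/NK cells was at 231 CPM in library 6, from 22 UMIs in 24 cells, and at 72.0 to 127 CPM in the others. *H2-T23* in MΦs was at 99.6 CPM in library 6 (155 UMIs in 517 cells) and at 47.7 to 64.5 CPM in the others. *Tap1* in MΦs was at 64.2 CPM in library 6 (100 UMIs) and at 25.8 to 35.02 CPM in the others. *Tap2* in *Irf4* MΦs was at 49.0 CPM in library 2, from 4 UMIs in 14 cells, and at 15.6 to 27.7 CPM in the others.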

How the results depend on the processing

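In all, 7 calls of members were made, and 107 of their 108 values under the alternatives were still called, all 108 with the same sign, the exception being *Nlrc5* in MΦs over T/NK cells at a minimum of 1000 genes. Of 620 member values under alternatives, 34 moved by more than the spread between libraries. In T/NK over B cells the members' median was 0.78 with exclusive gates and 0.71 without the cells in both gates, and 1492 and 1182 features were called in place of 617. The T/NK share of *Psmb9* was 49.5% with exclusive gates, and that of *Psmb10* 69.3%, or 66.0% without the cells in both gates. The median for MΦs over B cells was -1.03 on CPM without immunoglobulin, mitochondrial and ribosomal genes, and that for MΦs over T/NK cells -1.30 on this scale and -0.39 with TMM, where the median of all features moved from -0.23 to -0.74 and 0.21. These scales gave 28.7 and 67.8% of the calls in MΦs over T/NK cells as higher, in place of 48.3%. In MΦs over B cells 24.5% were higher on CPM without those genes, in place of 46.0%. With TMM 50.3% in place of 62.9% were higher in T/NK over B cells and 42.3% in place of 57.0% in *Irf4* over *Gata6* MΦs. *H2-D1* in MΦs over T/NK cells passed 2-fold without library 2, 4, 5 or 6, with TMM (1.42), stricter gates or a minimum of 1000 genes, and was 0.80 without library 3. *Nlrc5* in T/NK over B cells was called higher without library 6, with exclusive gates and when thinned. Values of members not called above that changed sign were those of *B2m*, *H2-K1* and *Tapbp* in MΦs over T/NK cells, and of *B2m* and *Nlrc5* in *Irf4* over *Gata6* MΦs, where thinning gave *Nlrc5* -1.51, called lower. No paired test was made between the groups of the labels, since each has 1 library and no label ties a library number to a group. Differences between classes were taken on UMIs summed over the libraries, so they carry the mix of libraries, and also within each library. Ranges between libraries and counts such as 6 of 6 come from the latter. *Nlrc5* and *Psmb9* in the MΦ subsets rest on 13 to 50 UMIs and are limited by depth.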
